A study of Homo sapiens with 96 samples.

Results

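The mRNAs that outlast a transcription block, and those that do not, were counted in A375 cells, a human melanoma line that carries an activated BRAF kinase, with BRAF and MEK inhibited. The comparison used 6 of the 96 libraries of the series, 3 harvested after 5 h in triptolide and 3 harvested immediately after triptolide was added (0 h). All 6 cultures had first received MAPKi for 18 h, a combination of 500 nM vemurafenib, a BRAF inhibitor, and 500 nM cobimetinib, a MEK inhibitor, so MAPKi was shared by both time points. Triptolide was given at 25 µM. Matched libraries were used beside it, 3 at each of 0 h and 5 h for MAPKi cells given vehicle in place of triptolide, 3 at each of 1 h and 3 h of triptolide in MAPKi cells, and 3 at each of 0 h and 5 h of triptolide in cells pretreated with DMSO. RNA came from cytoplasmic lysates, so nuclear transcripts were measured only as far as they reached that fraction, and all libraries came from 1 cell line. The labels number the replicates without saying whether they were separate cultures, so every p-value measures the spread between these samples, which may be technical.

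Triptolide binds the XPB helicase of TFIIH and stops initiation by RNA polymerase II, so that a message made before the block is lost at the speed at which it decays. Decay in the cytoplasm usually begins with shortening of the poly(A) tail by the CCR4-NOT and PAN2-PAN3 complexes, followed by decapping and XRN1 or by the exosome. Messages of transcription factors, signalling regulators and growth control genes are known for fast decay, often through AU-rich elements in the 3′ UTR bound by proteins such as ZFP36, whereas messages of ribosomal proteins and metabolic enzymes are known to be long-lived. In A375 cells the ERK pathway also drives transcription of many immediate-early and feedback genes, which inhibitors of BRAF and MEK shut down.

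The 6 libraries held 2381351 to 8975596 counts, and replicate 2 at 0 h was the shallowest and the least like its partners, with a correlation of 0.934 to replicate 3 across genes. No library repeated another. Of 11 melanoma markers, 9 reached a CPM of 1 (counts scaled to a fixed library total) at 0 h, with SOX10, MITF and DCT well expressed and MLANA and TYR under that level. The epithelial markers EPCAM and CDH1 were at 0 in all 6 libraries, and the summed keratinocyte list (104 to 138 CPM at 0 h, 114 to 149 CPM at 5 h) came almost wholly from KRT10, with KRT5, KRT1 and TP63 at 0. MAPKi cells at 0 h of triptolide differed from MAPKi cells at 0 h of vehicle in 4 of 14948 genes, 1 lower (0.00669%) and 3 higher (0.0201%), with edgeR, against 629 lower and 607 higher at an unadjusted p under 0.05.

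How much RNA was lost depends on the scaling, because a block of all transcription leaves no fixed total, and in bulk RNA fewer cells and less RNA per cell cannot be told apart. Counts were scaled here on a set of 36 genes, less those with 0 counts in any library, which the method leaves out. Their CPM at both 3 h and 5 h of triptolide was at least 1.1 times that of the vehicle library at 0 h with the same replicate number. This held in every replicate of both pretreatments, and scaled counts are called normalised counts below. These genes were chosen partly on the libraries compared, so their own stability is fixed by the choice and is no finding; the 5 with the highest CPM were RPLP1, RPL10A, RPL35A, CALR and RPL39, 6 of the 36 were in the ribosomal protein list used below, and 31 met the definition of a stable mRNA. On this scale the median share of the 0 h level that remained, over 10049 genes with at least 5 CPM at 0 h, was 86.9% ± 2.29 (SD, n = 3) at 1 h, 69.2% ± 3.36 at 3 h and 60.2% ± 1.33 at 5 h. Over the same 5 h without triptolide it was 102% ± 4.77. With TMM, which assumes that most genes do not change, the median at 5 h became 104%, and with total-count scaling 81.3%. Absolute losses therefore hold only for the scale named. Differences between genes depend on it less, but fitted changes of genes with few counts did not move like the rest. With TMM the median log2 change over all genes went from -0.70 to 0.06. That of the 13 ERK feedback genes, most of them with few counts, went from -2.43 to -2.36.

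**Figure D1:**
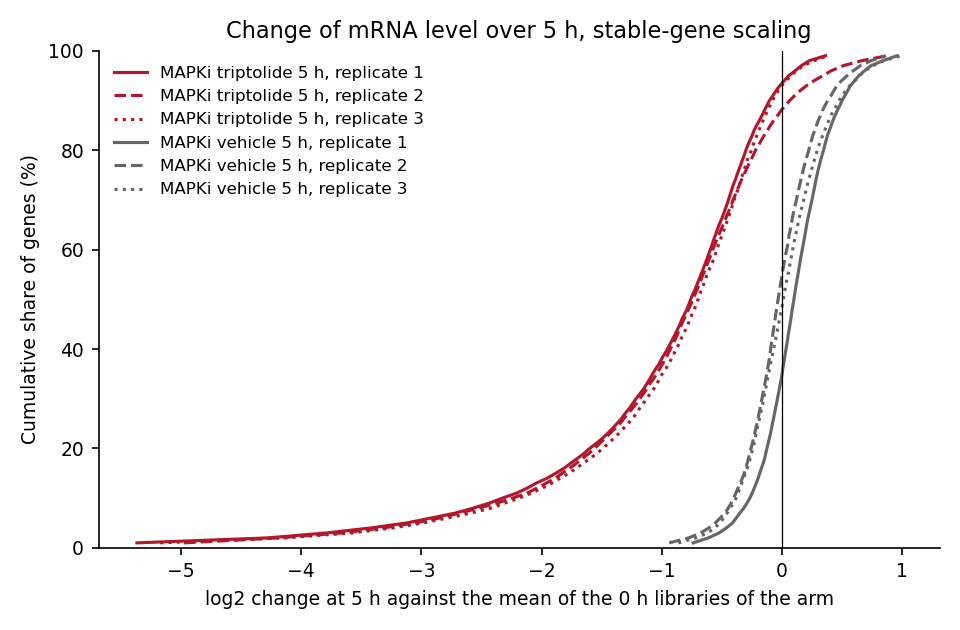
Cumulative share of genes (y axis, %) against the log2 change of the normalised count at 5 h relative to the mean of the 0 h libraries of the same arm (x axis), 1 line per 5 h library, for triptolide (red) and vehicle (grey) after MAPKi. The 3 triptolide lines lie to the left of the 3 vehicle lines over most of the range, with medians of 59.1 to 61.7% remaining against 97.8 to 107%, and have a long tail of strongly reduced messages.

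With edgeR's quasi-likelihood test over 14948 genes, 8180 (54.7%) were lower at 5 h than at 0 h and 236 (1.58%) were higher at an adjusted p under 0.05. With TMM the same test called 3136 genes lower (21.0%) and 3136 higher (21.0%), a lower share of 50% of the calls in place of 97.2%, and the median log2 change over all genes moved from -0.70 to 0.06. An mRNA was termed unstable where it was called lower and its fitted log2 change was -1 or less, so that the fitted share remaining was 50% or less, and stable where the lower bound of the 95% interval of its log2 change was above -0.5, which corresponds to 70.7% remaining. Shares remaining given for a gene are those of the 5 h libraries against the 0 h mean, which can differ somewhat from the fitted value. By these definitions 4517 mRNAs (30.2%) were unstable and 1606 (10.7%) were stable. Without replicate 2 at 0 h there were 3952 unstable and 2011 stable mRNAs. In vehicle 123 genes (0.823%) fell and 200 (1.34%) rose over the same 5 h. When the vehicle change was subtracted in the model, 6587 genes (44.1%) fell and 73 (0.488%) rose, and 4006 of the 4517 unstable mRNAs (88.7%) were among those that fell.

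The split by function was wide. The lists and their members were chosen with earlier results of these data known, so the split is no independent evidence. The 14 regulatory lists (transcription factor families, immediate-early, feedback, apoptosis and growth control genes) held 586 tested genes, of which 441 (75.3%) were unstable and 7 (1.19%) were stable. The ZNF list alone supplied 405 of these genes and 324 of the unstable ones, and in the other lists 117 of 181 (64.6%) were unstable. The 13 core lists (translation, energy metabolism, protein folding and turnover, cytoskeleton and matrix) held 540 tested genes, of which 40 (7.41%) were unstable and 197 (36.5%) stable. At 5 h, 24.7% ± 0.745 (SD, n = 3) of the median regulatory message remained, against 79.6% ± 1.32 of the median core message, and 28.4% ± 1.5 of the median regulatory message outside the ZNF list. The difference of the medians, which a shift common to all genes does not change, was -1.73, -1.64 and -1.69 on the log2 scale in the 3 libraries. All 14 regulatory lists lay below the median of all genes in 3 of 3 libraries, and all 13 core lists lay above it in 3 of 3. Of the 42 lists examined, 20 were below and 20 above in 3 of 3 libraries, and the melanocyte lineage and ATF4 lists crossed the median between libraries.

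**Figure D2:**
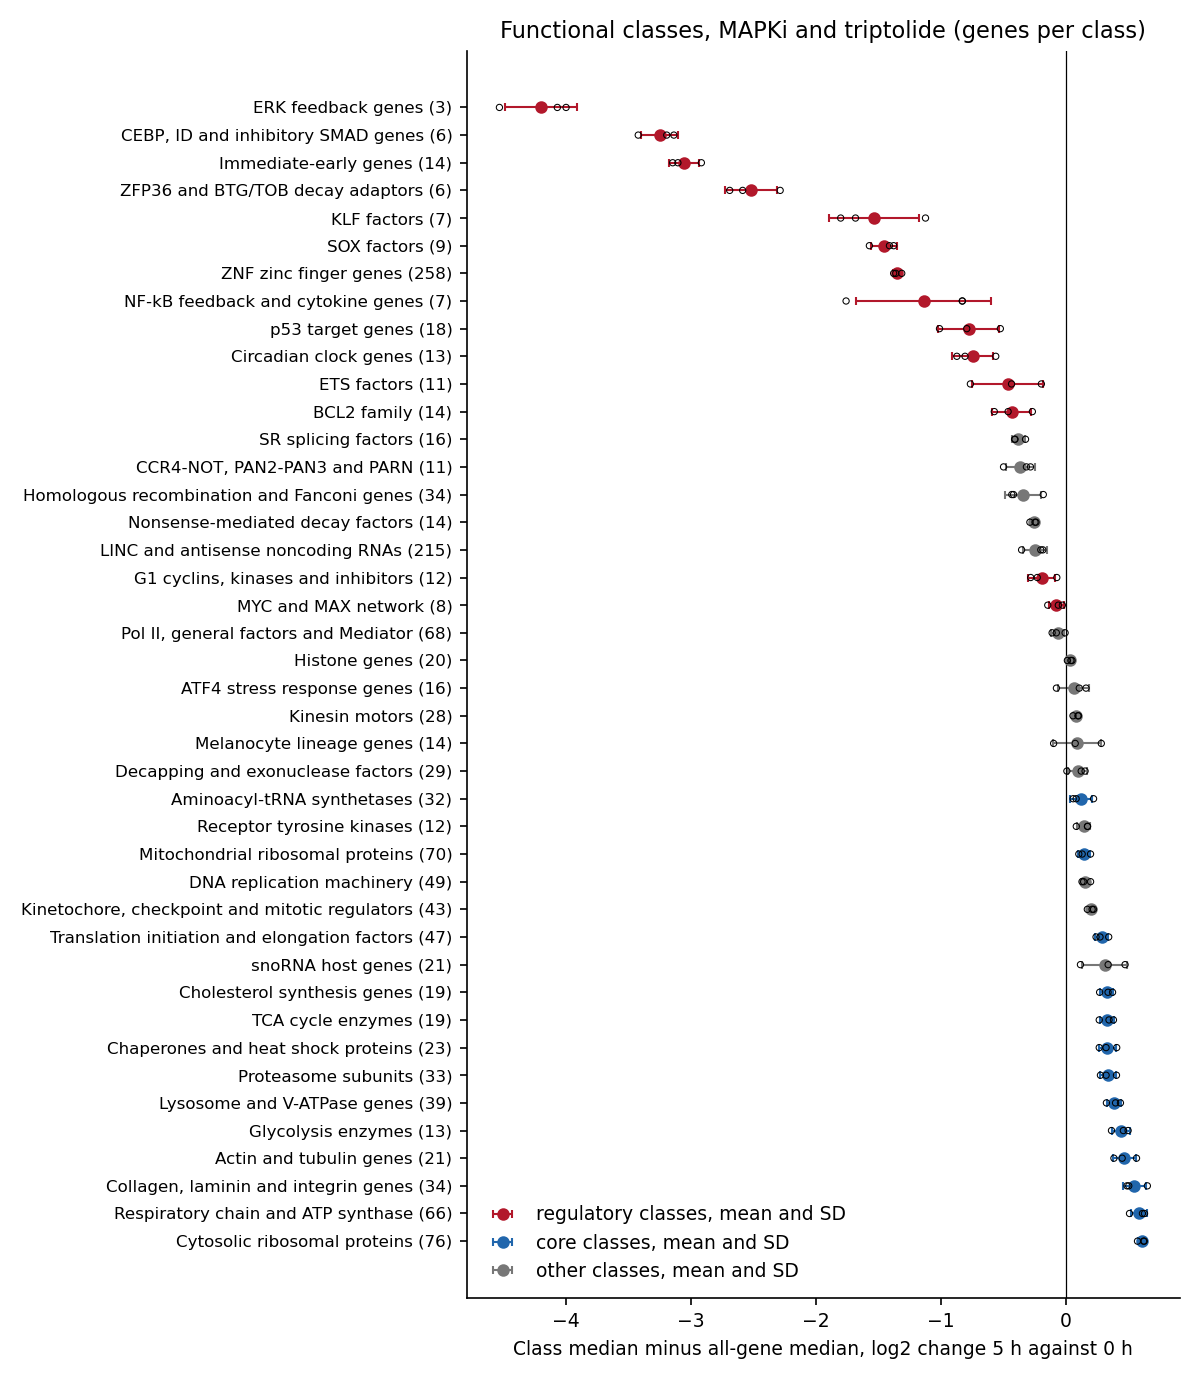
Median log2 change at 5 h of each functional list minus the median of all genes (x axis), with the number of members at 5 CPM or more in brackets; open points are the 3 libraries, filled points and bars their mean and SD, red for regulatory, blue for core and grey for other lists, and the vertical line marks the all-gene median. Regulatory lists run from -4.20 for ERK feedback genes to -0.08 for the MYC and MAX network, and core lists from 0.12 for aminoacyl-tRNA synthetases to 0.60 for cytosolic ribosomal proteins.

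The immediate-early genes, which encode transcription factors and regulators induced within minutes of growth factor signalling, were among the fastest lost. Of 24 tested, 20 were unstable, none was stable and 1, EGR2, was called higher from an initial level of 0. The 14 members at 5 CPM or more lay 3.06 ± 0.12 (SD, n = 3) log2 units below the median of all genes. Several of these messages carry the AU-rich heptamer TATTTAT, the core of the sites that ZFP36 proteins bind, in the annotated 3′ UTR. The heptamer is common, and was present in 38.0% of the annotated 3′ UTRs of 9316 genes with at least 5 CPM at 0 h. Windows of 25 bases from the GRCh38 transcript annotation are given for FOS and JUN, for 2 further unstable regulators, and for RPL39. RPL39 is a ribosomal protein message that was stable, but it is a scaling gene, whose stability the choice fixed, so it is no independent contrast. The heptamer or, where it is complete, the nonamer TTATTTATT is in capitals. The windows lie in the 3′ UTR, on the sense strand of each gene, at chr14:75282062-75282086 (plus strand), chr1:58780821-58780845 (minus), chr10:3778343-3778367 (minus), chr2:8683877-8683901 (plus) and chrX:119786643-119786667 (minus).
FOS: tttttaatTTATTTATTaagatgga
JUN: gcttatgaaTATTTATaacagcatt
KLF6: tgtttctctTATTTATgccttgagg
ID2: gatattcgtTATTTATgaaaaagac
RPL39: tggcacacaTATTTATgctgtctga

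FOS, a subunit of the AP-1 transcription factor, had 192, 296 and 252 normalised counts at 0 h and 2.14, 0 and 0 at 5 h. The groups were far apart, with 3 reads left in all, and the log2 change was -8.15 (SE 1.14, adjusted p = 2.2e-25). Without triptolide 56.2% ± 2.31 (SD, n = 3) of FOS remained. JUN, its AP-1 partner, had 1657, 1734 and 1726 normalised counts at 0 h and 10.7, 12.1 and 10.6 at 5 h, so that 0.653% ± 0.0496 remained (log2 -7.23, SE 0.26, adjusted p = 5.14e-44). Its groups did not overlap and its replicates were close at both times, and in vehicle 85.3% ± 1.67 remained. ATF3, a stress-induced member of the same bZIP family, fell to 4.82% ± 2.59, and IER2, a nuclear immediate-early regulator, to 8.76% ± 0.992. EGR1, a zinc finger factor, had 4.92, 0 and 8.9 normalised counts at 0 h and 0 in all libraries at 5 h, a call (adjusted p = 0.00163) that was lost without replicate 3 at 0 h. MYC, a growth-promoting transcription factor, had 1.64, 0 and 1.98 at 0 h, so its decay was not detectable at this depth. SRF, which drives transcription of many immediate-early genes, was the slowest of the unstable members, with 49.1% remaining.

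The negative regulators of ERK, the DUSP phosphatases and the SPRY and SPRED adaptors, were low after MAPKi, and 3 of the 13 tested reached 5 CPM. DUSP6 had 0, 0 and 6.92 normalised counts at 0 h and was not measurable. Of the 13, 9 were unstable. DUSP4, a nuclear ERK phosphatase, had 179, 215 and 257 normalised counts at 0 h and 7.15, 7.5 and 5.29 at 5 h, which left 3.06% ± 0.547 (log2 -4.98, SE 0.25, adjusted p = 4.83e-36). DUSP10, which acts on p38 and JNK, fell to 2.34% ± 1.26. The groups of both genes were fully separate.

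ID2, an inhibitor of basic helix-loop-helix factors, had 1486, 1771 and 1334 normalised counts at 0 h and 15.7, 40.4 and 21.2 at 5 h, and 1.68% ± 0.846 remained. It belongs to a list of CEBP, ID and inhibitory SMAD genes in which 8 of 9 tested members were unstable and the median was 6.33% ± 0.534. CEBPD, a bZIP factor, fell to 2.63% ± 1.53. The list of messages for the decay adaptors themselves, the ZFP36 family and the BTG and TOB proteins that recruit CCR4-NOT, had 7 of 8 members unstable, with 10.5% ± 1.49 remaining at the median. BTG1 was the most abundant, with 8098, 9512 and 6865 normalised counts at 0 h and 265, 262 and 334 at 5 h (log2 -4.83, SE 0.13, adjusted p = 6.49e-43). It kept 3.52% ± 0.502, against 78.7% ± 11.6 in vehicle, and the slowest member, BTG3, kept 69.9%.

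Among the transcription factor families the KLF, SOX and ZNF genes followed. KLF6 had 399, 373 and 433 normalised counts at 0 h and 10, 4.04 and 9.52 at 5 h, leaving 1.96% ± 0.826 (log2 -5.75, SE 0.29, adjusted p = 6.02e-36), and KLF9, a glucocorticoid-responsive member, kept 4.74% ± 0.594. Of 13 KLF genes tested, 10 were unstable. SOX10, the neural crest factor that maintains melanocytic identity, had 2167, 2554 and 2684 normalised counts at 0 h and 224, 332 and 342 at 5 h, and 12.1% ± 2.63 remained (log2 -3.05, SE 0.13, adjusted p = 1.21e-33). In vehicle SOX10 stood at 121% ± 4.17. SOX2, a stem cell factor, kept 1.84% ± 0.311 and SOX9, a neural crest and cartilage factor, 3.52% ± 1.38. Of 9 SOX genes tested, 8 were unstable.

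The ZNF genes, mostly Krüppel-type zinc finger repressors, formed the largest regulatory list. Of 405 tested, 324 were unstable and 1 was stable, and 258 at 5 CPM or more had 23.6% ± 0.552 remaining at the median. Their position relative to all genes differed little between libraries, at -1.35 ± 0.03 on the log2 scale. With TMM 273 were still lower and 2 were higher. ZNF574 was among the 10 largest falls of all genes, with 65.6, 53.8 and 42.5 normalised counts at 0 h and 0, 0.577 and 0 at 5 h. The exception was ZNF664, which kept 107% ± 11.2, with 507, 333 and 602 normalised counts at 0 h and 472, 574 and 491 at 5 h, so the groups overlapped.

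**Figure D3:**
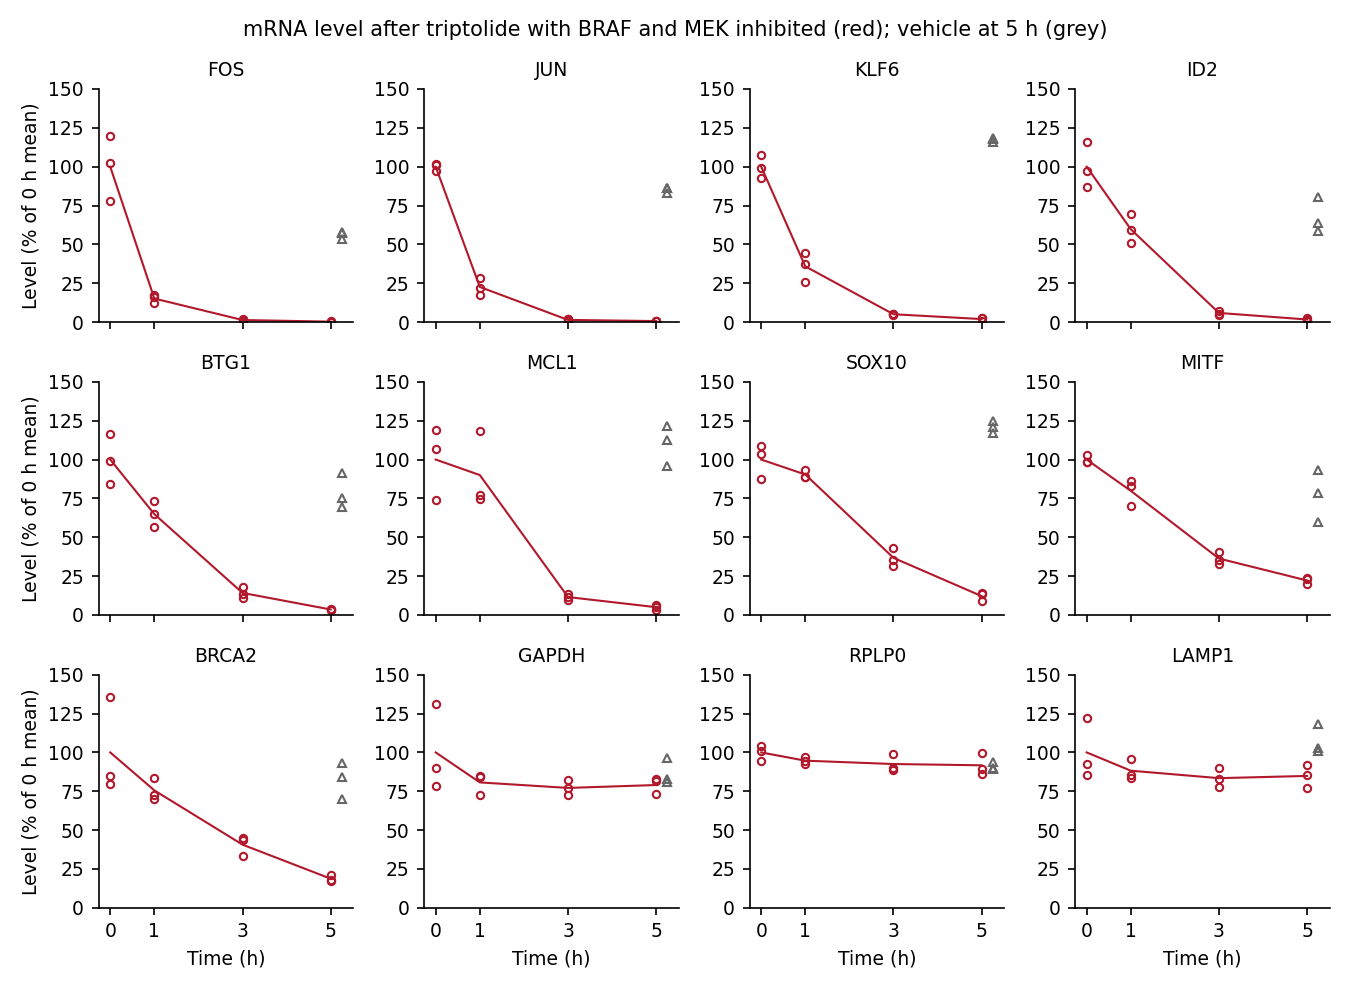
Normalised level of 12 mRNAs as a percentage of the 0 h mean (y axis) against hours in triptolide after MAPKi (x axis); red points are single libraries, the line joins their means, and grey triangles are the 3 vehicle libraries at 5 h, drawn slightly to the right. FOS and JUN fell furthest within 1 h, BTG1, ID2 and MCL1 fell furthest between 1 h and 3 h, SOX10 and MITF fell through 5 h to 12.1% and 22.2%, and GAPDH, RPLP0 and LAMP1 stayed at 79.0 to 91.7%.

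Apoptosis and p53 lists were mixed. In the BCL2 family, which sets the threshold for mitochondrial cell death, 10 of 18 genes were unstable (55.6%) and 3 were stable (16.7%). Among all genes tested 30.2% were unstable and 10.7% stable. MCL1, an antiapoptotic protein with a short-lived message, had 471, 326 and 524 normalised counts at 0 h and 23.6, 27.7 and 14.8 at 5 h, leaving 5.0% ± 1.49. BBC3, which encodes the proapoptotic BH3 protein PUMA, kept 2.39% ± 0.279. BAD, BCL2L12 and BID, the first and last of them proapoptotic, were stable at 90.7, 84.5 and 101%. Of 19 p53 targets, 11 were unstable (57.9%) and none was stable. Unstable targets included PLK2, a polo-like kinase, at 2.25% ± 0.848, the CDK inhibitor CDKN1A at 24.3% ± 3.35 and the p53 ubiquitin ligase MDM2 at 33.6% ± 1.36. CDKN1A had 638, 1039 and 677 normalised counts at 0 h and 201, 161 and 211 at 5 h, and MDM2 had 535, 595 and 487 against 174, 181 and 188. The groups of both genes were separate.

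In the NF-kB feedback list 7 of 14 members were unstable (50%, against 30.2% of all genes tested), led by the inhibitor NFKBIA with 1.03% ± 0.842 remaining. The list moved most between libraries, at -1.14 ± 0.54 relative to all genes. Of 17 circadian clock genes, 12 were unstable (70.6%), NFIL3 with 1.65% ± 1.54 among them. The ETS factors, several of which are ERK substrates, had 8 of 15 unstable (53.3%). The stable ones were 2 (13.3%, against 10.7% of all genes tested), ETS1 and ELK1. ELK1 kept 126% ± 12.9, but its values at 0 h were 121, 57.1 and 244 and its direction turned without replicate 2. Of 13 G1 regulators 5 were unstable (38.5%, against 30.2% of all genes tested). The CDK inhibitor CDKN1B fell to 5.98% ± 1.86, while CCND1, the cyclin most directly driven by ERK, had 90.2, 77.3 and 82 normalised counts at 0 h and 57.9, 50.2 and 45.5 at 5 h. CCND1 thus kept 61.5% ± 7.52, close to the median of all genes, and its call was lost with total-count scaling and turned to a log2 change of 0.05 with TMM.

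Of 11 genes of the MYC and MAX network 4 were unstable (36.4%, against 30.2% of all genes tested) and none stable. The list lay 0.08 ± 0.06 below the median of all genes on the log2 scale. The unstable members were MGA, MNT, MXD1 and MXD3, partners or antagonists in the network, and MYC itself had 1, 0 and 2 reads at 0 h and 0, 1 and 0 at 5 h.

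Among 16 melanocyte lineage genes 5 were unstable (31.25%), about the share of all genes tested (30.2%). These were the transcription factors SOX10, TFAP2A, PAX3 and MITF and the receptor MC1R. MITF, the master regulator of the lineage, had 3450, 3620 and 3468 normalised counts at 0 h and 808, 699 and 830 at 5 h, so that 22.2% ± 1.99 remained (log2 -2.17, SE 0.13, adjusted p = 1.74e-25), against 77.1% ± 16.8 in vehicle. DCT, a pigment enzyme and the most abundant member, had 15452, 12399 and 15380 normalised counts at 0 h and 13441, 9633 and 13490 at 5 h, with overlapping groups, and S100B, a calcium-binding protein, stood at 104% ± 15.3 but is a scaling gene, whose stability the choice fixed. PMEL, a melanosome matrix protein, kept 79.1%.

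Genes of homologous recombination and the Fanconi pathway, which repair DNA double-strand breaks and crosslinks, lay below the median of all genes by 0.35 ± 0.14 (SD, n = 3). Of 37 tested, 17 were unstable (45.9%, against 30.2% of all genes tested) and none stable, with 47.5% ± 4.59 remaining at the median. With TMM 13 were lower and 3 higher. By the same definition 7 were unstable with TMM and 11 with total counts, where unstable mRNAs over all genes numbered 1991 and 2810. BRCA2, a mediator of homologous recombination, had 308, 528 and 329 normalised counts at 0 h and 70, 66.9 and 81.5 at 5 h, and 18.7% ± 1.97 remained (log2 -2.39, SE 0.18, adjusted p = 8.57e-20). Its groups were far apart, and vehicle cells kept 82.7% ± 11.6. BRCA1, an E3 ligase that acts upstream of BRCA2, kept 47.0% ± 6.78, but it also fell to 68.4% ± 8.4 in vehicle, and the difference between both changes was -0.51 on the log2 scale (edgeR adjusted p = 0.0151). FANCF, a subunit of the Fanconi core complex, kept 7.02% ± 6.64.

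Cell cycle machinery was retained somewhat more than the average message. Of 50 DNA replication genes 11 were unstable and 12 stable, and of 43 mitotic genes 6 were unstable and 11 stable. In both lists the unstable share was under that of all genes tested (30.2%) and the stable share above it (10.7%). The replication list lay 0.154 ± 0.036 (SD, n = 3) and the mitotic list 0.199 ± 0.026 above the median of all genes on the log2 scale. Each lay above it in every library. Both lists drifted down without triptolide, with 8 replication genes and 6 mitotic genes called lower in vehicle. AURKA, a mitotic kinase, kept 35.3% ± 2.4, CDK1, the mitotic cyclin-dependent kinase, 51.7% ± 11.3, and ANLN, a cytokinesis scaffold, had 695, 723 and 607 normalised counts at 0 h and 753, 907 and 650 at 5 h. ANLN overlapped between times and changed direction with the scaling (log2 0.20, with mitochondrial rRNA scaling -0.11). Histone genes had 10 of 50 unstable (20%), H4C3 with 25.7% ± 3 among them. Their replication-dependent members lack a poly(A) tail and are poorly represented in a poly(A)-primed library.

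The machinery of decay and RNA processing was itself unevenly retained. Among all genes tested, 30.2% were unstable and 10.7% stable, and several of these lists were near those shares. Of 12 deadenylase genes 8 were unstable, such as the CCR4-NOT subunit CNOT4 at 28.8% ± 3.51, and 1, PAN2, was higher at 188% ± 36.2 from only 45.9, 20.2 and 86 normalised counts at 0 h, a call lost when any of 4 libraries was left out (replicates 1 and 2 at either time). Of 16 SR splicing factors and their kinases 9 were unstable (56.3%), and of 14 nonsense-mediated decay factors 6 (42.9%). Of 29 decapping and exonuclease genes 8 were unstable (27.6%) and 8 stable (27.6%). MED26, a Mediator subunit, had 70.5, 94.1 and 91.9 normalised counts at 0 h and 0, 5.77 and 0 at 5 h. Of 75 genes of RNA polymerase II, general factors and Mediator, 28 were unstable (37.3%). Among 21 ATF4 targets of the amino acid and stress response 8 were unstable (38.1%), from DDIT4, an mTORC1 inhibitor, at 2.36% ± 0.339. The stable ones were 2 (9.52%), the serine and folate enzymes PSAT1 and MTHFD2.

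Of the remaining lists, the LINC and antisense noncoding RNAs lay 0.25 ± 0.09 (SD, n = 3 libraries) below the median of all genes on the log2 scale. That position rests on the 215 members at 5 CPM or more, with 50.7% ± 3.57 remaining at the median. Of all 728 tested, 178 (24.5%) were unstable and 23 (3.16%) stable, both under the shares of all genes tested (30.2% and 10.7%). The snoRNA host genes, which carry small nucleolar RNAs in their introns, had 7 of 26 unstable (26.9%) and 7 stable (26.9%), and at the median 75.0% ± 10.8 remained. Receptor tyrosine kinases had 1 of 18 unstable and 2 stable, and kinesin motors 3 of 33 unstable and 3 stable. The unstable receptor was EPHB4, at the limit of the definition with a fitted log2 change of -1.02 and 52.1% ± 3.97 of the 0 h mean, and the stable ones were FGFR1 (94.9% ± 18.9) and EGFR, which had only 0, 5 and 1 reads at 0 h and 8, 8 and 16 at 5 h.

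The cytosolic ribosomal proteins had the highest list median on average over the 3 libraries, although the respiratory chain was higher in replicate 1 and the collagen list in replicate 2. Of 83 tested, 57 were stable and 3, the pseudogenes RPS10P7, RPS14P3 and RPS16P5, whose reads cannot be told from those of their parent genes with certainty, were unstable. The list lay 0.60 ± 0.03 (SD, n = 3) above the median of all genes and 91.6% ± 3.2 remained. Without its 6 scaling genes 51 of 77 were stable and the list lay 0.58 ± 0.04 above, level with the respiratory chain (0.58). On the stable-gene scale 35 were lower and 6 higher, and with TMM 2 were lower and 71 higher, so that their direction follows the scaling. RPLP0, a stalk protein, had 20761, 22873 and 22077 normalised counts at 0 h and 19614, 18895 and 21755 at 5 h, with overlapping groups (91.7% ± 6.79). RPL39, whose 3′ UTR window is given above, had 5746, 5761 and 5768 against 5801, 5786 and 5680, and kept 100% ± 1.14, with the heptamer in a 3′ UTR of 180 bases. RPL39 is among the scaling genes.

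The genes of the respiratory chain and ATP synthase came next, with 49 of 74 stable, 1 unstable and 90.1% ± 4.66 remaining. With TMM 1 was lower and 60 were higher, against 26 and 1 on the stable-gene scale. The unstable member was NDUFV3, an accessory subunit of complex I with 607, 813 and 630 normalised counts at 0 h and 237, 204 and 263 at 5 h. It kept 34.4% ± 4.35 (log2 -1.53, SE 0.15, adjusted p = 2.37e-14) and its groups were separate. The TCA cycle, the lysosome and V-ATPase, and glycolysis each had no unstable member, with 5 of 19, 14 of 40 and 4 of 15 stable. GAPDH, a glycolytic enzyme often used as a reference, had 54172, 78839 and 47094 normalised counts at 0 h and 49659, 43868 and 48808 at 5 h, and 79.0% ± 5.21 remained. The groups overlapped and the call (adjusted p = 0.0031) was lost without replicate 2 at 0 h. LAMP1, a lysosomal membrane protein, kept 84.9% ± 7.23.

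Collagen, laminin and integrin genes had 1 of 51 unstable and 16 stable, and the actin and tubulin list 1 of 22 unstable and 8 stable. COL16A1, COL9A3 and COL27A1 are scaling genes, whose stability the choice fixed, and without these 3 the collagen list had 13 of 48 stable and lay 0.49 ± 0.07 above the median of all genes. ACTB stood at 81.6% ± 6.28 and VIM, the intermediate filament vimentin, at 114% ± 21.7. TUBB4B, a beta tubulin, was the unstable exception at 44.8% ± 3.55, with 3909, 6783 and 3378 normalised counts at 0 h against 1921, 2134 and 2250 at 5 h, and with TMM its call was lost.

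Other core lists held fast messages among slow ones. In the cholesterol list 5 of 21 were unstable (23.8%, against 30.2% of all genes tested). Among them were the SREBP retention factor INSIG1, and the synthesis enzymes SQLE, MVK and HSD17B7. HMGCS1, the HMG-CoA synthase, kept 72.9% ± 9.63 after triptolide but rose to 174% ± 12 in vehicle, a net difference of -1.26 on the log2 scale (edgeR adjusted p = 3.7e-06). Among 24 chaperones the unstable members were the inducible DNAJB1, DNAJB4 and DNAJB9 and the cochaperone BAG3. DNAJB1, an HSP40 partner of HSP70, had 1114, 1815 and 963 normalised counts at 0 h and 32.2, 34 and 59.3 at 5 h, and 3.22% ± 1.17 remained (log2 -4.99, SE 0.25, adjusted p = 2.98e-30).

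Proteasome subunits had 12 of 34 stable and 2 unstable, PSMC1 and PSMC6, the latter at 49.0% ± 4.28. Mitochondrial ribosomal proteins were less uniform than the cytosolic ones, with 12 of 72 unstable (16.7%) and 10 stable (13.9%). Among all genes tested 30.2% were unstable and 10.7% stable. MRPS31 had 335, 508 and 268 normalised counts at 0 h and 35, 50.8 and 24.3 at 5 h, and 9.92% ± 3.59 remained (log2 -3.23, SE 0.20, adjusted p = 5.99e-25). Aminoacyl-tRNA synthetases had 4 of 33 unstable (12.1%) and 3 stable (9.09%), the latter near the share of all genes. The unstable ones were the mitochondrial enzymes PARS2, MARS2 and YARS2 and the cytosolic RARS1.

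Of 52 translation factors 7 were unstable (13.5%) and 11 stable (21.2%), against 30.2% and 10.7% of all genes tested. However, 2 of the unstable calls rest on 1 library. EEF1D, an elongation factor subunit, had 14.8, 3267 and 5.93 normalised counts at 0 h and 13.6, 8.65 and 14.8 at 5 h, and without replicate 2 at 0 h its log2 change was 0.33. EIF3C had 72.2, 1650 and 25.7 at 0 h and 27.2, 27.1 and 30.7 at 5 h, and its call was lost without that replicate (log2 -0.74). EEF1A1, the main elongation factor, ranged from 3438 to 26849 at 0 h and its change (178% ± 28 remaining, adjusted p = 0.0646) did not pass the test.

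The 5 largest falls of all genes left no read in any 5 h library. CBX8, a Polycomb subunit, had 59.1, 77.3 and 64.2 normalised counts at 0 h and 0 in all 3 libraries at 5 h, at least 28.5-fold lower against a floor of 3 counts per library. HARBI1, a transposase-derived gene, was at least 21.0-fold lower, and the developmental homeobox factor DLX2, with 39.4, 33.6 and 35.6 at 0 h, at least 15.4-fold lower. SNORD13E, annotated within DENND4A, and GPR21, annotated within RABGAP1, were at least 16.5-fold and 15.5-fold lower, and both lie on the strand of their host gene, so that reads of the host cannot be separated from theirs. Among the 10 largest were also FOS, JUN and ZNF574, described above. HPS6, a lysosome-related organelle biogenesis gene, kept 1 read. CITED2, a CBP and p300 interacting regulator, had 16.4, 30.2 and 108 normalised counts at 0 h and 0, 0.577 and 0 at 5 h.

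The 10 largest rises were genes with no read in any 0 h library, 6 of them with only provisional locus names. LEP, which encodes leptin, had 55, 46.7 and 46.6 normalised counts at 5 h, at least 8.25-fold above the floor, and 140, 103 and 120 at 3 h. BMP5, a bone morphogenetic protein, had 60.8, 43.3 and 62.4 at 5 h and 0 at 3 h, and COL21A1, a collagen, 27.9, 53.6 and 49.7. PKD1L3, a polycystin family channel subunit, had 42.2, 30.6 and 50.8. BMP5 (chr6:55753653-55875590) and COL21A1 (chr6:56056590-56394094) lie on the minus strand of the same stretch of chromosome 6 in GRCh38. In vehicle at 5 h, LEP had 0, 0.981 and 0 normalised counts and the other 3 had 0, and all 4 were also present after 5 h of triptolide in DMSO cells. The 3′-tag reads do not show whether a spliced message was counted.

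Features of the mRNA that had no part in the definition were examined over 9316 genes with at least 5 CPM and an annotated 3′ UTR in GRCh38 (1 transcript per gene). TATTTAT, searched on the transcript strand with overlapping matches counted, was present in 43.7% of unstable and 29.4% of stable mRNAs, against 38.0% of the 9316 and 32% of all 18908 annotated 3′ UTRs. The nonamer TTATTTATT, which contains it, was present in 12.9% of unstable, 5.89% of stable, 10.1% of the 9316 and 8.58% of all annotated 3′ UTRs. Messages with no TATTTAT kept 63.6% ± 1.53 (SD, n = 3) at the median, those with 1 kept 58.5% ± 1.39, those with 2 kept 54.9% ± 1.27, those with 3 kept 55.9% ± 1.34 and those with 4 or more kept 54.0% ± 1.97, a difference between no copy and 4 or more of -0.24 on the log2 scale. Copies rise with 3′ UTR length, and among genes of intermediate 3′ UTR length 61.4%, 58.5% and 54.8% remained with 0, 1 and 2 or more copies.

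Length separated messages more than the motif did. In 5 bins of equal size, the shortest coding sequences (median 549 bases) kept 72.7% ± 1.22 and the longest (median 3639 bases) 55.9% ± 1.05. For the 3′ UTR, the bin of the shortest (median 250 bases) kept 69.1% ± 2.25 and that of the longest (median 4903 bases) 55.6% ± 1.38. By the share of codons that end in A or T, which ran from a median of 19.6% in the lowest bin to 64.6% in the highest, the 4 lower bins were within their spread of each other (61.8 to 63.2%) and the highest bin kept 55.1% ± 2.24. Across the 9316 genes, which are not independent replicates, Spearman's rho with the log2 change was -0.19 for coding length, -0.14 for 3′ UTR length, -0.11 for the number of TATTTAT, -0.06 for codons ending in A or T and -0.02 for the share of aspartate and glutamate codons. All of these are weak. The bins include the ZNF genes. Without ZNF genes rho for codons ending in A or T was -0.05 over 9062 genes.

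**Figure D4:**
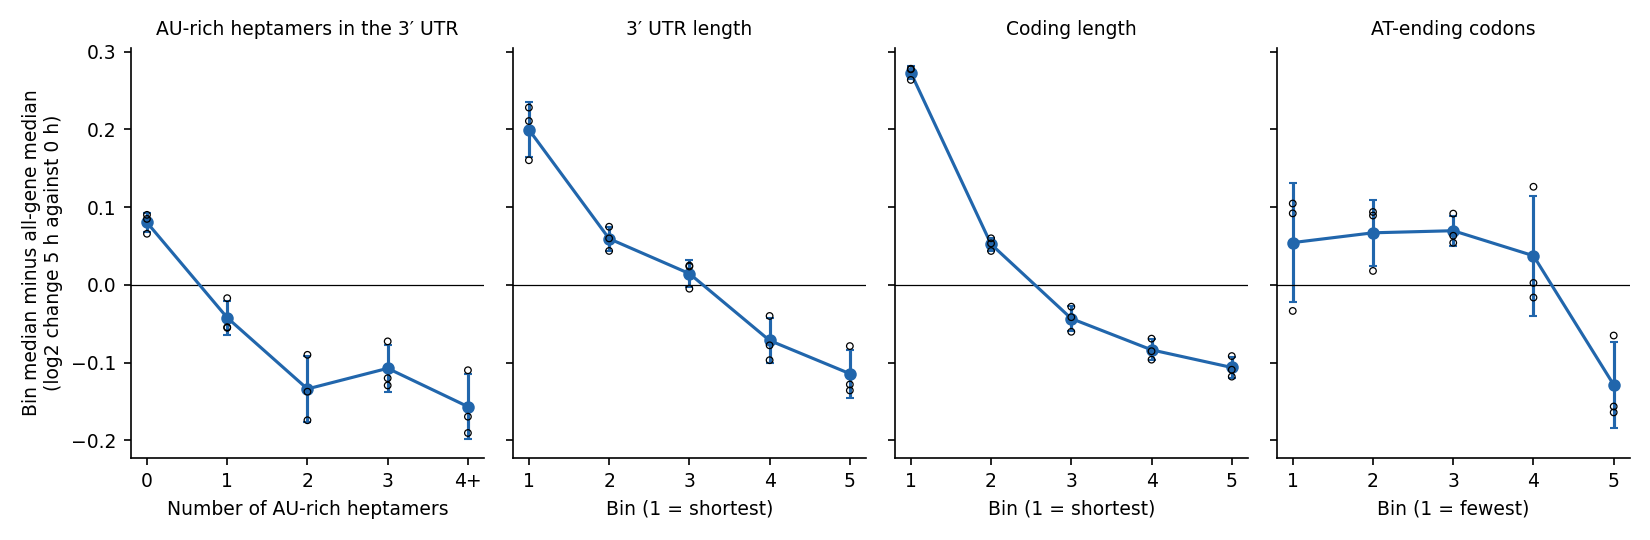
Median log2 change at 5 h minus the median of all genes (y axis) by the number of AU-rich heptamers in the 3′ UTR and by 5 bins of equal size of 3′ UTR length, coding length and the share of codons ending in A or T (x axes); open points are the 3 libraries and filled points with bars their mean and SD. Values fall with length in both length panels, from 0.27 in the shortest to -0.11 in the longest bin of coding length, while for codons ending in A or T only the highest bin lies apart, at -0.13.

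The most similar comparison was the same 5 h of triptolide after DMSO, which kept 70.1% ± 3.75 at the median of the same 10049 genes and had 3540 unstable (23.7%) and 2210 stable mRNAs (14.8%). Unstable in both pretreatments were 2852 mRNAs, 63.1% of those of MAPKi cells and 80.6% of those of DMSO cells. The difference of the 5 h changes was tested directly in the same model. It was lower after MAPKi for 532 genes (3.56%) and higher for 71 (0.475%), 4.03% in both directions together, with a median difference over all genes of -0.15 on the log2 scale, and with TMM 379 were called in all. The medians and the split by direction hold only for the stable-gene scale. With mitochondrial rRNA scaling 2071 genes were called. The difference for MCL1 was 0.19 on the stable-gene scale, 0.42 with TMM and -0.098 with mitochondrial rRNA. The number called also depended strongly on the libraries used. It was 302 of both directions together without replicate 2 at 0 h, 354 without MAPKi replicate 1 at 5 h, 346 without DMSO replicate 1 at 5 h, and 64 when the groups compared were fitted alone, against 603.

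Within that test SOX9 (difference -1.87, SE 0.19, adjusted p = 1.75e-11), BTG1 (-1.71, SE 0.19, adjusted p = 1.7e-10), DUSP4 (-2.24, SE 0.28, adjusted p = 2.82e-10) and MRPS31 (-1.89, SE 0.26, adjusted p = 2.08e-07) fell further after MAPKi, and kept their calls when the groups compared were fitted alone. BTG1 kept 3.52% after MAPKi and 11.5% ± 2.88 after DMSO, DUSP4 3.06% and 15.0% ± 1.03, SOX9 3.52% and 13.4% ± 1.7, and MRPS31 9.92% and 39.5% ± 5.92. The replicates of the 2 pretreatments did not overlap for any of these 4 genes. FOSL1, an AP-1 subunit whose gene is an ERK target, went the other way (difference 1.98), with 30.9% ± 18.6 remaining after MAPKi and 8.23% ± 1.85 after DMSO. Its MAPKi libraries were widely spread, and its call was lost under at least 1 of the alternatives run. JUN did not pass the test of the difference (-1.38, SE 0.55, adjusted p = 0.223), nor did MITF (-0.49, adjusted p = 0.108), BRCA2 (-0.69, adjusted p = 0.0903) or MCL1 (0.19, adjusted p = 0.863).

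**Figure D5:**
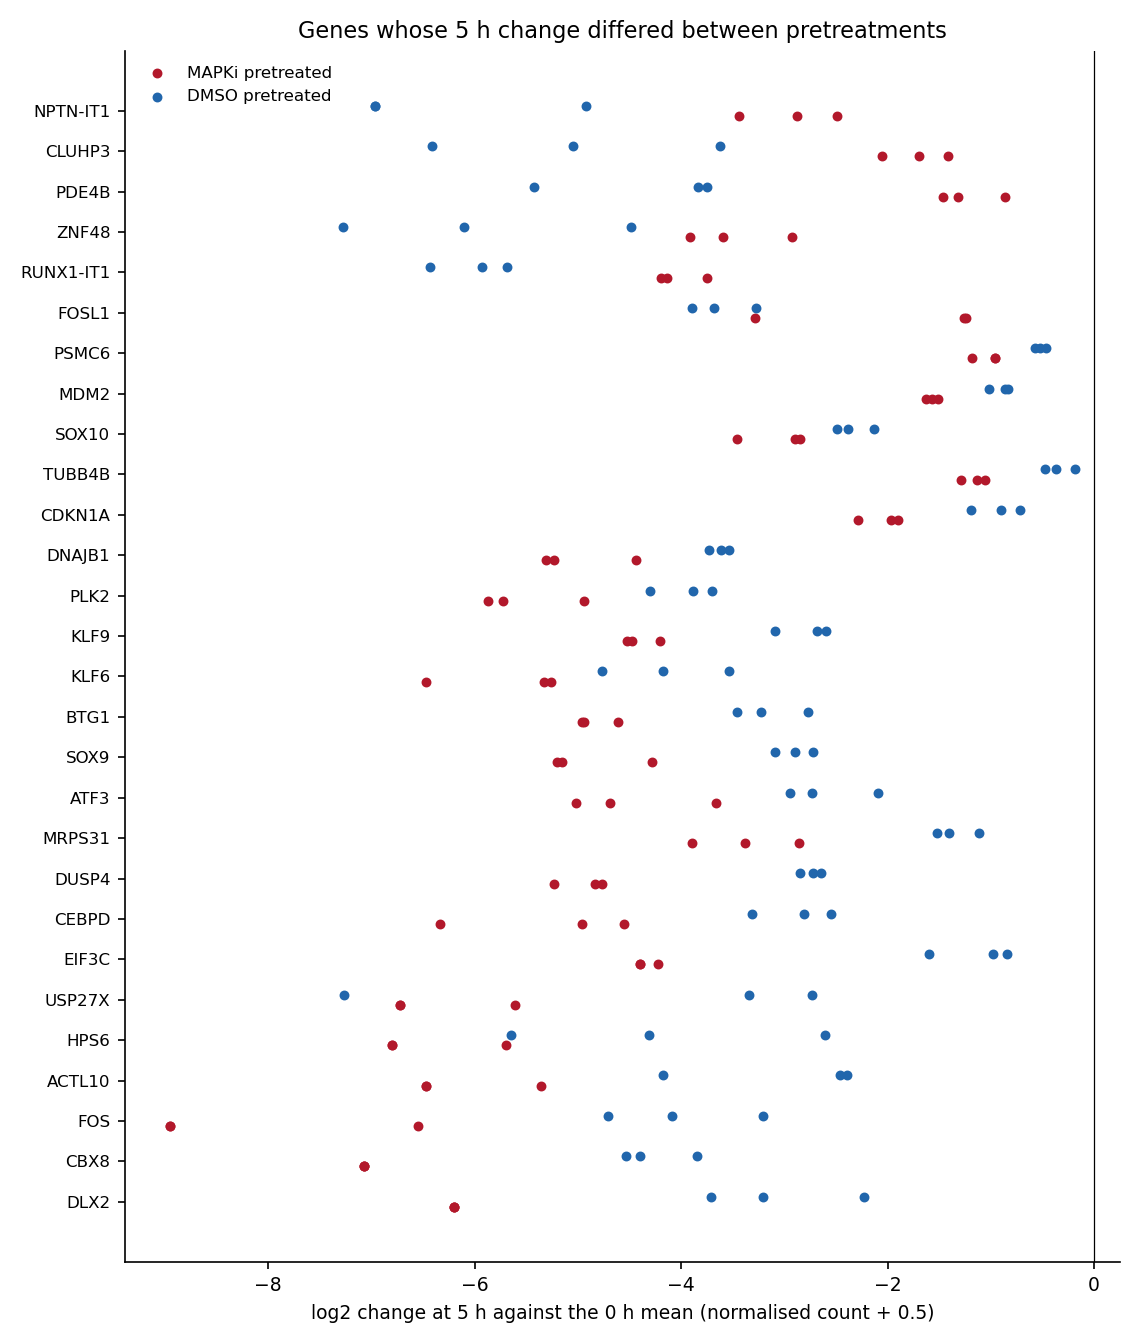
log2 change at 5 h of triptolide against the 0 h mean (x axis, normalised count + 0.5) for 28 named genes with a called difference between pretreatments; each point is 1 library after MAPKi (red) or DMSO (blue). For 22 genes the MAPKi points lie mostly to the left, as for MRPS31 and DUSP4, and for 6, FOSL1 and PDE4B among them, mostly to the right.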

How the data were processed

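Cytoplasmic RNA of A375 cells was profiled by QuantSeq, which reads the 3′ ends of poly(A) RNA. The deposited file holds raw counts by gene in 96 libraries, which the authors made with fastp 0.20.1, HISAT2 2.2.1 and HTSeq 0.13.5 on GRCh38 per the labels; the annotation release and strand setting are not given in the sources used here, so reads of overlapping and antisense genes cannot be told apart. The libraries held 2381351 to 12520154 counts. Floors (3 counts) cover counting error only, and molecular identifiers are not described. The interval that defines a stable mRNA came from the edgeR fit, so it also covers the spread between libraries.

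Groups came from the labels. Size factors were DESeq2 (1.42.0) medians of ratios over the 36 stable genes. The method leaves out genes with 0 counts in any library, ARNTL2 and RASSF2 among them, so fewer than 36 set the factors. edgeR (4.0.16, R 4.3.3) quasi-likelihood models were fitted to all 96 libraries with 1 mean for each of 32 groups, over 14948 genes kept by filterByExpr, two-sided, with Benjamini-Hochberg adjustment over all of them. List medians used genes with mean CPM of at least 5 at 0 h and a pseudocount of 0.5. Gene lists and members were chosen with earlier results of these data known, and the split into regulatory and core lists is no independent evidence. Named genes were the 10 largest falls and rises, up to 2 extremes at each end of a list, a fixed set, the 5 largest differences between pretreatments in each direction and the 5 most abundant scaling genes; further members were chosen after their values were seen, and a few are not reported here. Of 44659 entries 27050 matched a GRCh38 annotation by symbol and 309 by an older symbol, which gave coordinates and 3′ UTRs. On simulated counts for this comparison over 14948 genes, 94% of changes of -2, 76% of -1, 66% of 1 and 30% of 0.5 (log2) were recovered, with 8 false calls. The simulation changed 50 well-counted genes at each size and held all others equal between the times. It was fitted with the size factors that generated it. It therefore says nothing of errors from the scaling, or of a comparison in which most genes change. Alternatives were 4 other scalings, DESeq2, other filters, another initial level, fewer libraries in the fit, a replicate block and leaving out each library.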

Additional observations from a re-analysis of the deposited data

Results flagged for a closer look

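The difference between pretreatments, that is, the log2 change at 5 h of triptolide after MAPKi minus that after DMSO, was past the threshold of edgeR's interaction test (adjusted p under 0.05, all 96 libraries) for 28 of the genes named, and each is given as a value without an explanation. Among the regulators it was -4.14 for FOS, -2.43 for CEBPD, -2.24 for DUSP4, -1.89 for ATF3, -1.87 for SOX9, -1.71 for BTG1, -1.63 for KLF6, -1.62 for KLF9, -1.41 for PLK2, -1.10 for CDKN1A, -0.72 for SOX10 and -0.66 for MDM2. Among genes of core functions it was -3.19 for EIF3C, -1.89 for MRPS31, -1.35 for DNAJB1, -0.81 for TUBB4B and -0.50 for PSMC6. Falls were also ranked among genes called with at least 5 CPM in both 0 h triptolide groups. The largest of these were -5.29 for DLX2, -4.79 for CBX8, -3.97 for ACTL10, -3.57 for HPS6 and -3.40 for USP27X. These genes had no read or a single read left after MAPKi, so that these fitted values depend on the prior count. FOS, which also had few reads left after MAPKi, shares this limit. In the other direction the difference was 3.79 for NPTN-IT1, 3.33 for CLUHP3, 3.20 for PDE4B, 2.51 for ZNF48, 2.32 for RUNX1-IT1 and 1.98 for FOSL1. EIF3C rests on replicate 2 at 0 h, without which its difference was 0.38. SOX9, BTG1, DUSP4, MRPS31, CEBPD, KLF9 and PDE4B kept their calls under all alternatives run, and every other gene named here lost its call under at least 1.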

How the results depend on the processing

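Scaling decided how many mRNAs counted as unstable or stable. Unstable mRNAs numbered 1991 with TMM and 2810 with total counts, and stable mRNAs 7032 with TMM, 4765 with total counts, 358 with mitochondrial rRNA and 1014 with the compared groups alone and the replicate block. The genes called numbered 8416 in the analysis reported and 6272 with TMM, of which 3372 were shared in the same direction and 930 turned. Calls in vehicle rose to 499 with TMM, and those between triptolide and vehicle at 0 h were 123 with no filter and 2 with the replicate block. The test between pretreatments called 379 with TMM, 2071 with mitochondrial rRNA, 64 with the compared groups alone, 82 with those and the replicate block, and 302 to 870 when each library was left out.

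The median share remaining was 104% with TMM, 81.3% with total counts, 49.1% with mitochondrial rRNA, 62.5% with genes stable at 3 h or 5 h, 58.5% and 63.4% with CPM of at least 1 and 20, 62.2% against vehicle at 0 h, and 57.6 to 64.9% when each library was left out. The regulatory minus core difference was -1.77 and -1.58 with CPM of at least 1 and 20, and -1.49 with no ZNF list, chosen after seeing the data. List medians crossed that of all genes for decapping factors against vehicle at 0 h (-0.063), kinesins with CPM of at least 20 (-0.083), and histones with CPM of at least 1 (-0.12) and when each library was left out (-0.023 to 0.10).

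Log2 changes turned in sign with TMM for CCND1 (0.046), GAPDH (0.47), ACTB (0.53), RPLP0 (0.66), RPL39 (0.78), HMGCS1 (0.30), LAMP1 (0.56), BTG3 (0.24), BAD (0.61), BCL2L12 (0.53), PMEL (0.41) and DCT (0.53), and with total counts for BAD (0.25), BCL2L12 (0.17), PMEL (0.046), GAPDH (0.11), ACTB (0.17), RPLP0 (0.30), RPL39 (0.42), LAMP1 (0.21) and DCT (0.16). They turned with mitochondrial rRNA for ZNF664 (-0.28), ELK1 (-0.17), ANLN (-0.11), VIM (-0.12), S100B (-0.24), BID (-0.32) and, between pretreatments, MCL1 (-0.098), for BID with the compared groups alone and the replicate block (-0.041), and for RPL39 with genes stable at 3 h or 5 h (0.050) and with the replicate block (2.0e-04). When libraries were left out one at a time, DUSP6 ranged from -2.77 to 3.21 (positive without replicate 3 at 0 h), ZNF664 from -0.12 to 0.26, ELK1 from -0.084 to 0.88, ACTB from -0.48 to 0.034, RPL39 from -0.0062 to 0.0088, EEF1D from -7.06 to 0.33, S100B from -0.066 to 0.19, BID from -0.23 to 0.18, and in the test between pretreatments MCL1 from -0.050 to 0.43 and EIF3C from -3.78 to 0.38, of which EIF3C and EEF1D turned without replicate 2 at 0 h. Apart from the scalings, which shift most genes by about the same amount, the cause was not tested. The labels do not say that the replicate numbers pair libraries. Correlations of same-numbered deviations at 5 h and 0 h over 6664 genes were 0.07, -0.32 and -0.22, so pairing was not taken as shown, although replicate 1 had the highest share of mitochondrial rRNA in 28 of 32 groups. With the replicate block 8486 genes were called.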
